A study of Mus musculus with 6 samples.

Results

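Transcripts of 9 complement genes were followed in the lens of mice aged 3 months. The genes were chosen by name, and their probes by the RefSeq accession printed for each probe in the array files, which gave 12 of the 39429 different probes on the array. Complement components were C3, C4b, C1ra and Cfb (6 probes), and regulators were Cfi, Serping1, Cd55, Cd59a and Clu (6 probes). C3, C1ra and Serping1 had 2 probes each and the others 1. Wild type lenses (3 arrays, replicates 1, 2 and 3) were compared with lenses of βB2-crystallin W151C knock-in mice (3 arrays, replicates 1, 2 and 4). The knock-in, made with CRISPR/Cas9, replaces a tryptophan with a cysteine in the product of Crybb2, a structural protein of the lens. The labels give no strain, no sex and no zygosity, nor how many animals went into an array, so the p-values cover array-to-array spread only, and that spread may be technical.

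Complement is a cascade of plasma and cell surface proteins that marks targets for uptake or lysis. The classical pathway starts with the C1 complex, whose proteases C1r and C1s cleave C4 and C2. The convertases so formed cleave C3, factor B carries the amplification loop of the alternative pathway, and soluble and membrane-bound regulators hold these steps in check on host cells. The lens lies in an avascular, immune-privileged compartment, and clusterin, which binds the terminal complex and also acts as an extracellular chaperone, is abundant in lens tissue. Most complement proteins are made in the liver, but many cell types, macrophages included, make some of them locally.

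All values below are log2 spot signals minus the 75th percentile of their array, so that 0 is the level of that percentile and a difference of 1 is 2-fold. The 75th percentile itself stood at 698 for wild type array 3 and ranged from 120 to 201 for the other 5. The share of spots well above background ran from 45.5% to 58.4%. The file headers give 3 scans: the 3 knock-in arrays in scan 1, wild type arrays 1 and 2 in scan 2 on the same day, and wild type array 3 in scan 3 on another day. No scan held both genotypes, so scan and genotype cannot be told apart. The fits below with scan as a random block allow for likeness of arrays within a scan and do not separate scan from genotype either. Lens fibre markers were well above background, with all 10 of 10 tested and 5 of them lower in knock-in, where 12.6% of all genes tested were lower. Summed on the linear scaled signal, they gave 1426 to 1662 on the knock-in arrays, 3434 and 4071 for wild type arrays 1 and 2, and 1186 for wild type array 3. Summed retina markers were at 19.4 on knock-in array 4 against 2.92 and 4.55 on the other knock-in arrays and 1.22 to 1.82 in wild type. The part of these differences in the results was not tested. Precision is limited by the number of arrays. Since exact permutation of 3 against 3 arrays reaches no p under 0.1, limma was run over all genes measured.

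Of the 9 complement genes, 7 were bright enough to test and 4 passed an adjusted p of 0.05: C4b, C1ra and Serping1 were higher in knock-in lenses and C3, by its brighter probe, was lower. Over the whole array 25.9% of the 12785 genes tested passed, 13.3% higher and 12.6% lower, which is the background against which such a count has to be read. Both C1ra probes and both Serping1 probes rose, whereas the 2 probes of C3 differed in sign. Cd55, Cd59a and Clu did not pass, and Cfb and Cfi were not well above background on any array.

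**Figure D1:**
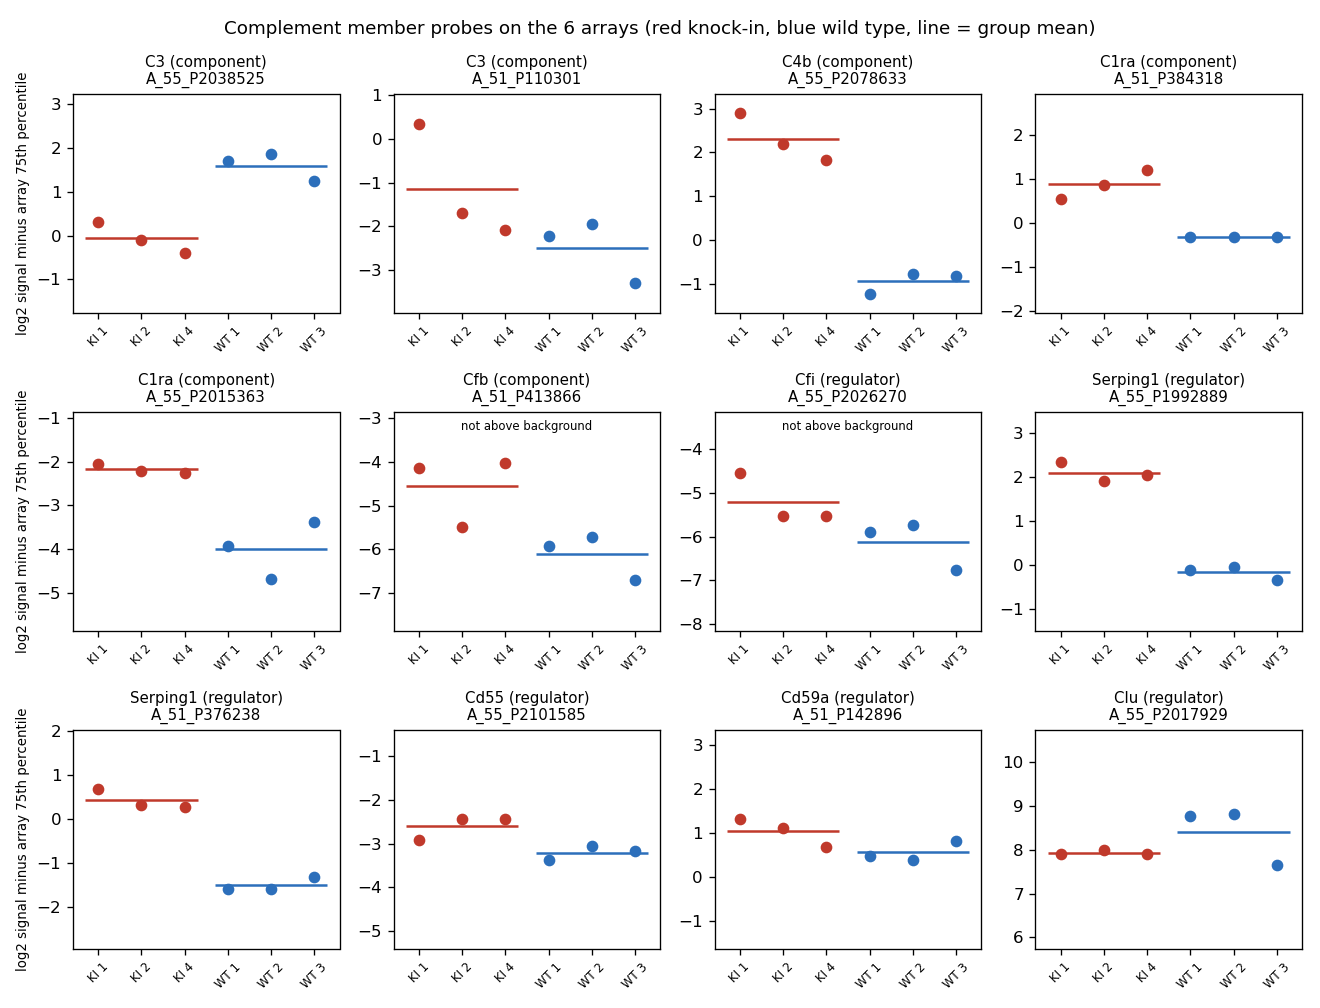
Each panel is 1 probe of a complement member and each point 1 array, with the log2 signal minus the array's 75th percentile on the vertical axis. Red points are knock-in (KI) and blue points wild type (WT) arrays, and lines are group means of 3 arrays. C4b, both Serping1 probes and both C1ra probes lie higher in all knock-in arrays, while the first C3 probe lies lower and the second overlaps between groups.

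Promoters are shown for C3 and C1ra, the called members with an entry in the RefSeq promoter table of build GRCm38.p6, which held 4 of the 9 members. Each window runs from 250 bases before to 50 bases after the gene's start, 5′ to 3′ on the gene's strand. Searched on both strands were TTGCNNAA for C/EBP, TTCNNNGAA for STAT factors (GAS), the interferon-stimulated response element and an NF-κB motif. Capitals mark the matches, which do not overlap.
C3, chr17:57228087-57228386, minus strand: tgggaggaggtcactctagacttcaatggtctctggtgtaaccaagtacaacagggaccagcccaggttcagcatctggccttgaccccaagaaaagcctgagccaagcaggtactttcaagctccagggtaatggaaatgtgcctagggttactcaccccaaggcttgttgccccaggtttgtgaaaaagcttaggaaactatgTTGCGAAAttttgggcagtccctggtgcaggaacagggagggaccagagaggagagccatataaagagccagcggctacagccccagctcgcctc
C1ra, chr6:124512371-124512670, plus strand: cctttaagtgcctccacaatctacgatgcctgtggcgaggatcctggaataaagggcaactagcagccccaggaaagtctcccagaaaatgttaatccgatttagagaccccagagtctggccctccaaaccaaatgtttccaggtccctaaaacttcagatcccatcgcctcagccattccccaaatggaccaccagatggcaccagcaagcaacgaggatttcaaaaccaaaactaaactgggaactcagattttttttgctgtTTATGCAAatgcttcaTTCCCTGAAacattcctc
The C3 window held 1 C/EBP match, at base 206 of the window, and the C1ra window held 1 C/EBP match at base 267, on the reverse strand, and 1 GAS match at base 283. Of all 32851 promoter windows, 10.8% held the C/EBP letters, 8.3% the GAS letters, 3.44% those of the interferon element and 4.79% those of NF-κB. The Cd55 window (chr1:130462695-130462994) had the NF-κB letters alone, and the Cd59a window (chr2:104095551-104095850) the interferon element alone. A match is a description of letters, not a bound site.

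C4b, the component that binds covalently to targets after cleavage by the C1 complex, differed most among the members. Its probe A_55_P2078633 read 2.89, 2.20 and 1.83 on knock-in arrays 1, 2 and 4 and -1.23, -0.77 and -0.83 on wild type arrays 1, 2 and 3. Every knock-in array lay above every wild type array, with a gap far wider than the spread within either group. Knock-in lenses had a mean of 2.31 ± 0.54 (SD, n = 3), and wild type lenses had one of -0.94 ± 0.25 (SD, n = 3). The difference of 3.25 (SE 0.29, limma adjusted p = 0.000614) is 9.53-fold, and it passed also with scan as a random block (3.23, limma adjusted p = 0.0189). Mouse C4a, the sex-limited copy of C4b, is close to it in sequence and had no probe by accession, so transcripts of both could contribute. C4b is gene 12268 on chromosome 17, between Tnxb and Cyp21a1 in the class III region of the histocompatibility complex.

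Serping1 encodes the C1 inhibitor, a serpin that inactivates C1r and C1s and also restrains the kallikrein system. The brighter probe, A_55_P1992889, read 2.34, 1.92 and 2.06 in knock-in and -0.11, -0.04 and -0.36 in wild type lenses. The other probe, A_51_P376238, read 0.68, 0.33 and 0.27 against -1.61, -1.60 and -1.32. The groups did not overlap on either probe, and the values within a group lay close together. The rise was 2.28 on the brighter probe (SE 0.18, limma adjusted p = 0.000394), or 4.84-fold. In the fit of every probe it was 1.93 on the other (SE 0.19, limma adjusted p = 0.00101), where 23.6% of 21076 probes passed. The call held with scan as a random block (2.31, limma adjusted p = 0.00877). Serping1 is gene 12258 on chromosome 2.

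C1ra, a gene for the C1r protease that Serping1 inhibits, rose less than either. Probe A_51_P384318 read 0.56, 0.87 and 1.22 in knock-in and -0.32, -0.33 and -0.32 in wild type lenses. The wild type arrays were almost identical, with an SD of 0.0047 against 0.33 in knock-in. The difference was 1.21 (SE 0.20, limma adjusted p = 0.00629), or 2.31-fold. The dimmer probe A_55_P2015363 read -2.06, -2.21 and -2.25 against -3.93, -4.67 and -3.38, a difference of 1.82 (SE 0.32, limma adjusted p = 0.00878). On that probe all 3 knock-in arrays but only 1 wild type array were well above background, so its size is set partly against background. With scan as a random block neither probe passed (limma adjusted p = 0.116 in the fit of genes and 0.117 for the dimmer probe). C1ra, gene 50909, lies on chromosome 6 beside its close copy C1rb and beside C1s1, a gene for the partner protease C1s. C1s1 rose by 0.62 (SE 0.17, limma adjusted p = 0.0387), and C1rb, at 0.68 (SE 0.55, limma adjusted p = 0.401), did not pass. Probes of C1ra and C1rb may bind transcripts of both, which was not checked. The call of C1s1 was lost on leaving out any 1 array other than wild type 3 (limma adjusted p from 0.0835 to 0.161), with median centring (limma adjusted p = 0.184) and with scan as a random block (limma adjusted p = 0.297).

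**Figure D2:**
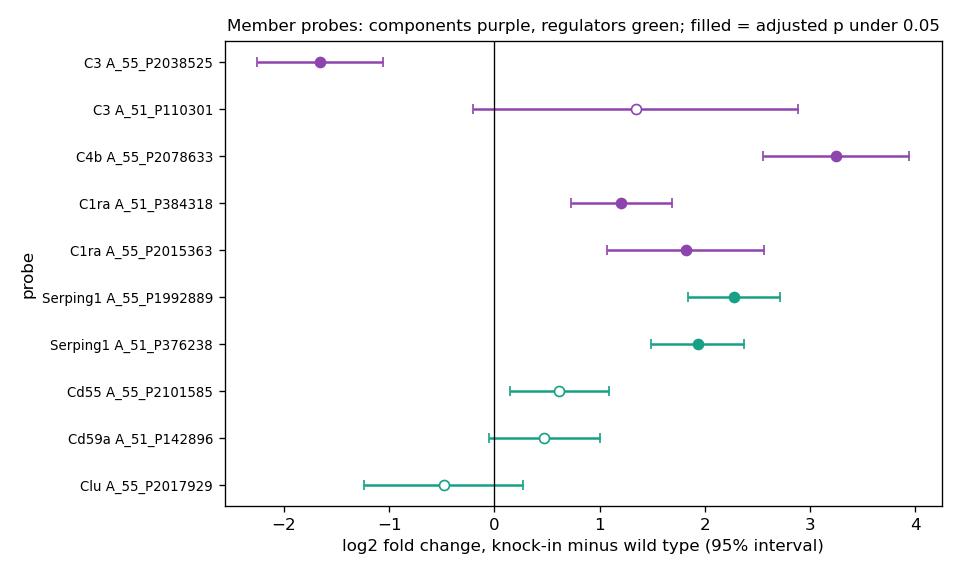
Differences in log2 signal, knock-in minus wild type, are given for the 10 member probes bright enough to test, with 95% intervals from the fit of every probe. Components are purple and regulators green, and filled points passed an adjusted p of 0.05. The C4b, C1ra and Serping1 probes lie between 1.21 and 3.25, and the C3 probes lie at -1.66 and 1.34.

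C3, the protein on which all complement pathways converge, gave opposite signs on its 2 probes. The brighter probe, A_55_P2038525, read 0.32, -0.10 and -0.39 on knock-in arrays 1, 2 and 4 and 1.71, 1.86 and 1.24 on the wild type arrays. All knock-in values lay below all wild type values, and the fall by 1.66 on the log2 scale (SE 0.25, limma adjusted p = 0.0044) is 3.16-fold. Probe A_51_P110301 read 0.34, -1.70 and -2.07 in knock-in and -2.23, -1.94 and -3.29 in wild type lenses. On it the groups overlapped, and knock-in array 1 stood far above every other array. The difference of 1.34 (SE 0.66, limma adjusted p = 0.177) did not pass and had a 95% interval from -0.20 to 2.89.

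Probe A_51_P110301 is printed 10 times on the array, and both C3 probes were well above background on all 6 arrays. Its spots agreed closely within an array, with an SD between 0.077 and 0.21 over 9 or 10 spots, so the high value of knock-in array 1 is not one spot's. Subtracting the brighter probe from it within each array, which removes any scaling between arrays, gave 0.03, -1.60 and -1.69 in knock-in and -3.94, -3.79 and -4.53 in wild type lenses. The groups did not overlap, and the difference of 3.00 had an exact two-sided permutation p = 0.1, the smallest that 3 against 3 arrays allow. The pair was singled out for its opposite signs, so this describes the probes and tests nothing. For Serping1 the same subtraction differed by -0.34 (exact permutation p = 0.1) and for C1ra by 0.61 (exact permutation p = 0.3). These are 3 comparisons, and none can pass 0.05 at this size. Among the 2307 genes with exactly 2 probes bright enough to test, 34% had probes of opposite sign, whether or not either passed, and 0.65% had opposite signs with both called. Without knock-in array 1 the value of A_51_P110301 was 0.60 (limma adjusted p = 0.381), and that of A_55_P2038525 was -1.84 (limma adjusted p = 0.00994). With scan as a random block the fall on the brighter probe was 1.60 and did not pass (limma adjusted p = 0.0788). The mean of both probes differed by -0.16 (limma adjusted p = 0.825), so the call for C3 rests on the probe chosen. Probe sequences were not used here.

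**Figure D3:**
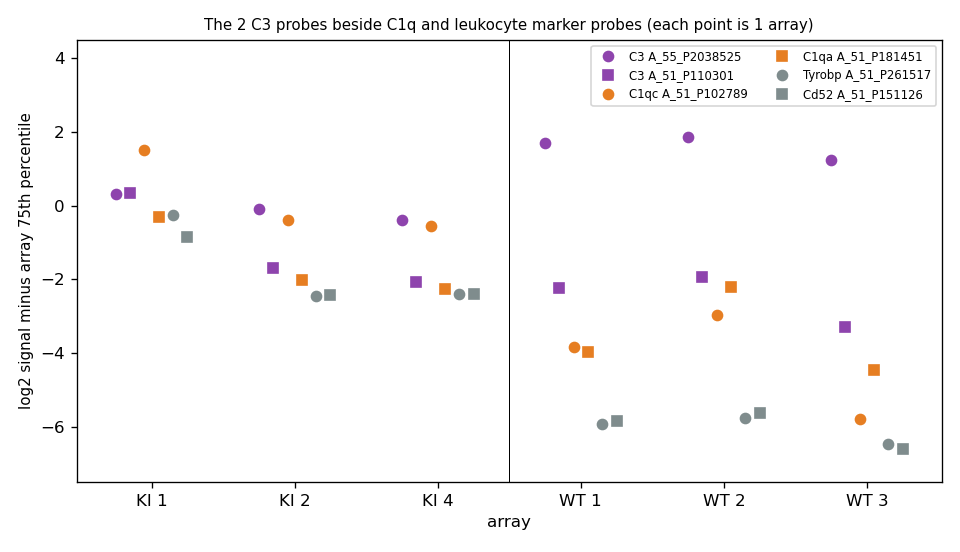
Values of both C3 probes (purple), the C1q genes C1qc and C1qa (orange) and the leukocyte markers Tyrobp and Cd52 (grey) are plotted for each array as log2 signal minus the array's 75th percentile. Circles mark the first and squares the second probe of a colour. Knock-in array 1 is the highest of the knock-in arrays for each of the 6 probes. Among these 6, the brighter C3 probe alone is higher in all wild type than in all knock-in arrays. Of the leukocyte markers tested but not drawn, Itgam, C1qb, Adgre1, Fcer1g and Cd14 were lower in knock-in by fitted value and Csf1r higher. Only Itgam among them passed.

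Macrophage and leukocyte markers were set beside this pattern. Of 16 listed, 15 were on the array by accession and 10 were tested. Tyrobp, C1qc and Cd52 were higher and Itgam lower, where 13.3% of all genes tested were higher and 12.6% lower. Tyrobp, C1qc and Cd52 were kept for the test through the knock-in arrays alone. Their calls are thus set wholly or partly against background, and their count is no support for a rise of leukocyte markers. Cd53, Laptm5 and Lyz2 were not well above background on any array. C1qc, a chain of the C1q recognition molecule made mainly by macrophages, read 1.52, -0.39 and -0.56 in knock-in and -3.83, -2.96 and -5.80 in wild type lenses. Its rise of 4.39 (SE 0.82, limma adjusted p = 0.00977) is set partly against background, since 1 wild type array was well above it. Tyrobp, an adaptor of myeloid receptors, and Cd52, a leukocyte surface glycoprotein, were not well above background in wild type, and the knock-in level was at least 5.11-fold higher for Tyrobp and 4.49-fold higher for Cd52. Without knock-in array 1 these bounds were 3.09-fold for Tyrobp and 3.14-fold for Cd52. With scan as a random block C1qc (limma adjusted p = 0.0919) and Tyrobp (limma adjusted p = 0.0693) did not pass. The other C1q chains did not pass, at 2.02 for C1qa (limma adjusted p = 0.0776) and -0.86 for C1qb (limma adjusted p = 0.105). The summed linear signal of the list was 11.5 to 22.0 in knock-in and 14.2 to 44.5 in wild type lenses. Itgam was tested by the brightest of 3 probes, and the other Itgam probes differed by 0.055 and -0.65 and did not pass. Probes of Adgre1 and Csf1r differed in sign too. Adgre1 was at -0.39 on its tested probe. Its dimmer probe, not well above background in wild type, was at 3.28 (limma adjusted p = 0.0179 in the fit of every probe). Csf1r was at 0.79 on its tested probe and -1.09 on another, and neither passed. Leaving Itgam out, a choice made after its values were seen, the sum was 11.6, 5.08 and 4.90 in knock-in and 5.72, 6.96 and 2.55 in wild type lenses. Ptprc, which defines leukocytes as CD45, was well above background on 1 knock-in and 2 wild type arrays. Among the knock-in arrays, array 1 was the highest for C3 probe A_51_P110301, for C4b and, by the probe that stands for each gene, for 10 of the 10 leukocyte markers tested. The share of all genes highest on that array was not computed, so this count has no background to be read against. Among the members, knock-in array 1 was also the highest for the falling C3 probe, both Serping1 probes, the dimmer C1ra probe and Cd59a. It was the lowest of the knock-in arrays for the brighter C1ra probe, Cd55 and Clu. The lowest signal well above background was also highest on knock-in array 1, at -2.68 against -3.67 and -3.70. Cfi, not well above background on any array, was highest there too (-4.55, -5.53 and -5.54). Ptprc was lowest on knock-in array 1, and the part of leukocytes in the C3 result was not tested. Without knock-in array 1, C4b still differed by 2.96 (limma adjusted p = 0.00307) and Serping1 by 2.16 (limma adjusted p = 0.00321). In bulk RNA, a change in the number of cells of a type and a change in RNA per cell cannot be told apart.

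Cfb, factor B of the alternative pathway, read -4.14, -5.49 and -4.02 in knock-in and -5.92, -5.73 and -6.70 in wild type lenses. Cfi, the protease that cleaves C3b and C4b, read -4.55, -5.53 and -5.54 against -5.90, -5.73 and -6.75. Although no knock-in value overlapped a wild type value on either probe, no array was well above background on them, so neither has a level or a fold. The lowest signal well above background was itself higher on the knock-in arrays, at -2.68, -3.67 and -3.70 against -3.89, -3.82 and -4.44. Over all genes tested, 45.9% had groups that did not overlap.

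Of the membrane regulators among the members, neither Cd55 nor Cd59a passed. Cd55, decay-accelerating factor, which splits the C3 convertases, read -2.91, -2.43 and -2.43 in knock-in and -3.38, -3.06 and -3.18 in wild type lenses. All knock-in values were the higher ones, but the difference of 0.62 (SE 0.20, limma adjusted p = 0.0574; 95% interval 0.16 to 1.08 before adjustment) did not pass, and knock-in array 1 was not well above background. Leaving that array out gave 0.78, which passed (limma adjusted p = 0.031). Within the shared scan day, fitted as a block, the value was 0.63 (limma adjusted p = 0.049), where 43.5% of all genes passed. Leaving out wild type array 3, which makes the same comparison, gave 0.63 and did not pass (limma adjusted p = 0.0506). After normexp background correction the Cd55 difference was 0.13 (limma adjusted p = 0.522). Cd55, gene 13136 on chromosome 1, neighbours its close copy Cd55b, whose brighter probe rose by 1.90 (SE 0.25, limma adjusted p = 0.00269). The other Cd55b probe, at 0.085 (limma adjusted p = 0.922 in the fit of every probe), did not pass, and the mean of both gave 0.99 (limma adjusted p = 0.0969). Probes of these copies may bind each other's transcripts, which was not checked.

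Cd59a, a lipid-anchored inhibitor of the membrane attack complex, read 1.32, 1.11 and 0.68 in knock-in and 0.49, 0.39 and 0.81 in wild type lenses. Wild type array 3 lay above knock-in array 4, so the groups overlapped. The difference of 0.48 (SE 0.22, limma adjusted p = 0.154) had a 95% interval from -0.04 to 0.99, which leaves room for a rise of up to nearly 2-fold. Its copy Cd59b was well above background on 1 array of each group and was not tested.

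Clu, clusterin, was among the brightest probes, with between 31 and 72 of the 39429 probes above it on each array. It read 7.90, 7.99 and 7.91 in knock-in and 8.77, 8.83 and 7.65 in wild type lenses. Wild type arrays 1 and 2 lay above the knock-in arrays and wild type array 3 below them. The difference of -0.48 (SE 0.32, limma adjusted p = 0.304) did not pass, with a 95% interval from -1.24 to 0.27. Without wild type array 3 it was -0.86 and passed (limma adjusted p = 0.00339), where 43.3% of all genes did. The fit within the scan day (-0.86, limma adjusted p = 0.00315) is the same comparison, since wild type array 3 alone was scanned on the other day. In that fit 43.5% of all genes passed. With scan as a random block the Clu difference was -0.36 (limma adjusted p = 0.688). Lens fibre markers, too, were highest on wild type arrays 1 and 2. Measured as the median deviation from each gene's mean over the 6 arrays, they stood at 0.85 and 1.09 on wild type arrays 1 and 2, -0.07 on wild type array 3 and -0.52 to -0.40 on the knock-in arrays. The part of this in the Clu value was not tested. Quantile normalization, which holds the brightest ranks near each other, gave -0.15 (limma adjusted p = 0.507).

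Set against each other, components and regulators each held members that rose and members that did not. Of the 3 components tested, 2 were higher and 1 lower, with a median log2 fold change of 1.21. Of the 4 regulators tested, 1 was higher and none lower, with a median of 0.55. The median over all genes tested was -0.04. For each array, the median deviation of the components from their own means, minus that of the regulators, was 0.02, 0.20 and 0.76 in knock-in and -0.20, -0.32 and -0.20 in wild type lenses. This quantity does not change with the scaling of an array. With the dimmer probes of C3, C1ra and Serping1 it was 1.90, 0.48 and 0.66 against -0.45, -1.17 and -1.08. The difference between the medians of the fold changes was 0.66 with the brighter probes and 1.27 with the dimmer ones, so its size depended on the probes. C1ra was the median component with either choice. These are descriptions of 7 genes and were not tested. The genes that rose, C1ra, C4b and Serping1, encode a protease, a substrate of its complex and its inhibitor.

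The other genes of the pathway were taken from lists by role. Of 55 complement genes, the members included, 54 were on the array, 31 were tested, and 8 were higher and 7 lower in knock-in lenses. Over all genes tested 13.3% were higher and 12.6% lower, which is the background for these counts and for those by role. Vtn among the higher and C8a among the lower were not well above background in the other genotype. The median log2 fold change of the 31 genes was 0.32. Among recognition molecules and proteases of the classical and lectin pathways, 4 of 13 were higher (C1qc, C4b, C1ra and C1s1) and 1 was lower, Colec11, a collectin of the lectin pathway, at -1.31 (SE 0.23, limma adjusted p = 0.00837), which did not pass after normexp correction (limma adjusted p = 0.0627). C2, which pairs with C4 in the convertase and lies next to Cfb on chromosome 17, did not pass at -0.28 (SE 0.33, limma adjusted p = 0.564). Cfp, properdin, did not pass at 0.086 (limma adjusted p = 0.804), and Cfd, the protease that cleaves factor B, was not well above background. Of 4 terminal components tested, C8a was called lower, but it was kept for the test through the wild type arrays alone. It was not well above background in knock-in, so the p of its fitted difference (limma adjusted p = 0.00243) is set against background. The bound was at least 1.07-fold, and there was no bound above 1 without any 1 of knock-in 2, knock-in 4 and wild type 1. After normexp correction C8a did not pass (limma adjusted p = 0.263).

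Among soluble regulators, Vtn rose beside Serping1. Vtn, vitronectin, which blocks insertion of the terminal complex, was not well above background in wild type, and its knock-in level was higher by at least 10.3-fold. Its call (limma adjusted p = 0.0158) belongs to the fitted difference, which is set against wild type background, and not to the bound. Vtn was kept for the test through the knock-in arrays alone. Knock-in arrays 1, 2 and 4 gave -0.40, -2.29 and 0.92 for it, highest where the retina markers were highest, and the part of retina in it was not tested. The bound was 18.5-fold without knock-in array 2 and 6.08-fold without knock-in array 4. Without knock-in array 1 Vtn did not pass (limma adjusted p = 0.0656), nor with scan as a random block (limma adjusted p = 0.201).

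Among membrane regulators, Cd55b and Cr1l were higher and Susd4, a membrane inhibitor of the convertases, was lower at -1.04 (SE 0.18, limma adjusted p = 0.00715). Cr1l, the rodent C3 convertase inhibitor Crry, differed by 0.59 (SE 0.17, limma adjusted p = 0.0446). Its call was lost on leaving out any 1 array other than wild type 3 (limma adjusted p from 0.0714 to 0.166), and also with median centring (limma adjusted p = 0.216). Of 3 receptors tested, Cr2 was lower at -1.12 and Itgam lower at -1.65. Leaving out any 1 array other than wild type 3 ended the calls of Cr2 (limma adjusted p from 0.0532 to 0.0789) and Itgam (limma adjusted p from 0.0815 to 0.135). With scan as a random block 4 of the 31 genes passed, 3 higher (C4b, Serping1 and Cd55b) and 1 lower, where 4.85% of all genes did.

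**Figure D4:**
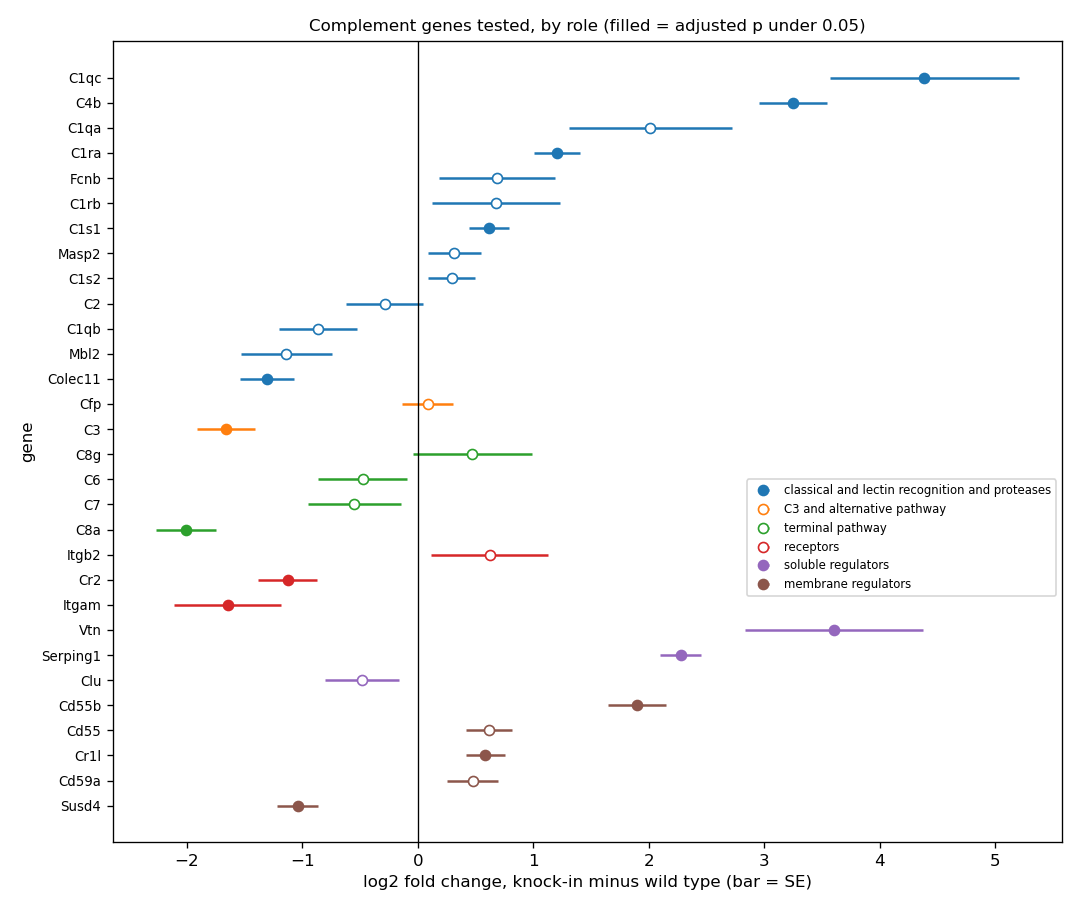
Log2 fold changes, knock-in minus wild type, are plotted for complement genes tested, with the SE as bars and 1 colour per role. Filled points passed an adjusted p of 0.05. The classical and lectin genes and the membrane regulators have called genes on both sides of 0. Vtn and C8a, dim throughout one genotype, are drawn at fitted values that are not bounds.

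In other tissues interleukin 6 can drive complement transcription through STAT3 and C/EBP factors. Genes of the acute phase and interleukin 6 response, both signalling genes and acute phase products, were measured as a separate list. Of 12 tested, 7 were higher and none lower, where 13.3% of all genes tested were higher and 12.6% lower. The median log2 fold change was 1.68, with fitted values against background among them. Cebpb, a C/EBP factor, read 3.63, 3.82 and 3.75 in knock-in and 1.46, 1.40 and 0.61 in wild type lenses, a rise of 2.58 (SE 0.25, limma adjusted p = 0.000821). Serpina3n, an acute phase serpin, Il6ra, the interleukin 6 receptor, and Il6 itself were not well above background in wild type. They were kept for the test through the knock-in arrays alone, so their calls are set against background. Their knock-in levels were at least 12.0-fold higher for Serpina3n, 7.87-fold for Il6ra and 4.58-fold for Il6. Osmr, the oncostatin M receptor, rose by 2.05, Stat3 by 1.31 and Cebpd by 2.24. Il6, Stat3 and Cebpd were picked for naming after their values were seen. All 7 passed under every alternative in which they could be fitted, and their part in the complement values was not tested. The other 5 tested did not pass. Socs3 was at 1.19 (limma adjusted p = 0.345), Lcn2 at 0.93 (limma adjusted p = 0.237) and Il6st at 0.06 (limma adjusted p = 0.89). Osm was at -0.66 (limma adjusted p = 0.25). Hp, an acute phase product, was not well above background in knock-in and was at least 1.55-fold lower there (limma adjusted p = 0.168 for the fitted difference). Saa3, A2m and Fgg were not well above background. Among 12 tested genes of interferon gamma and NF-κB signalling, Irf9 and Nfkbia were higher and Il1b lower, with a median of 0.32. Irf9 rose by 1.58 and did not pass with scan as a random block (limma adjusted p = 0.0506). The call of Nfkbia, at 0.63, was lost without any 1 array other than wild type 3 (limma adjusted p from 0.0831 to 0.149), and also with median centring (limma adjusted p = 0.171). Il1b was kept for the test through the wild type arrays alone, so its call is set against background. It was not well above background in knock-in and was at least 1.52-fold lower, and did not pass with scan as a random block (limma adjusted p = 0.0531).

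**Figure D5:**
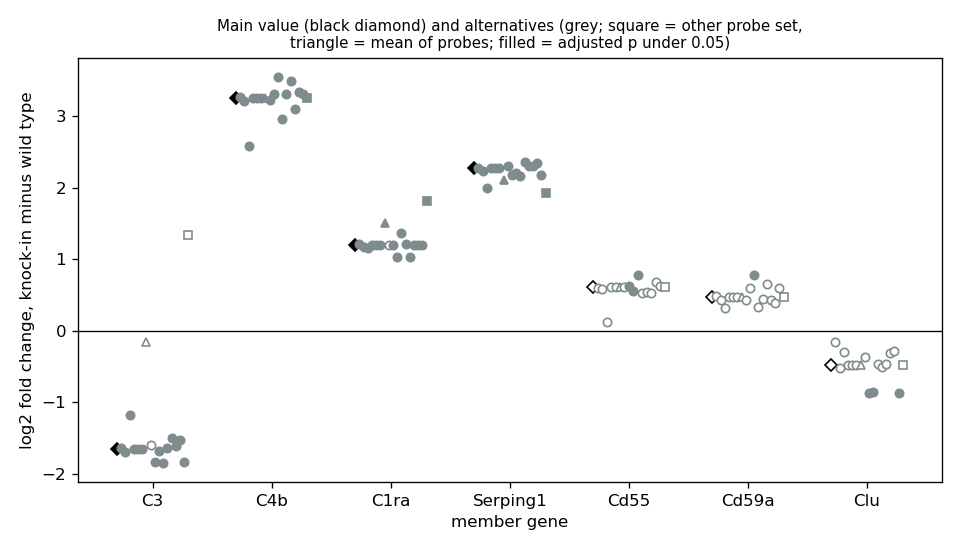
Log2 fold changes of the 7 members tested are plotted under the main setting (black diamonds) and the alternatives (grey), with filled points passing an adjusted p of 0.05. Squares use the dimmer probe of C3, C1ra and Serping1, and triangles the mean of a gene's probes. C4b stays between 2.58 and 3.55 and Serping1 between 1.93 and 2.37, while C3 ranges from -1.84 to 1.34.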

How the data were processed

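Per the labels, Cy3-labelled lens RNA was hybridised to single-colour Agilent arrays. The deposited values are intensity per spot, already background-subtracted. Per the file headers the software was Feature Extraction version 11.0.1.1 (the submitters' processing notes name version 9.1). Deposited flags of other kinds mark outlier spots and spots well above background.

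From these, log2 signals were scaled to the 75th percentile of each array, outlier spots left out and spots of a probe averaged. Probes were named through RefSeq accessions in a table of assembly GRCm38.p6 (27234 named). A probe was kept if well above background, in at least 50% of its spots, on all arrays of a group, and the brightest kept probe stood for a gene. The test was limma version 3.58.1 under R 4.3.3 (lmFit, eBayes, 4 residual degrees of freedom, Benjamini-Hochberg adjustment over all 12785 genes), and a second fit took every kept probe. For genes dim on every array of one group, the fold is a bound against, per array, the higher of its own signal and the lowest signal well above background.

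Members and lists were chosen with earlier results of these data known. Named were all members, every complement gene called and, of other lists, up to 4 called genes of smallest p, with exceptions stated. Some genes that did not pass, or whose probes differed, were named beside them. Some named results are not reported here. Normexp (offset 50) used median signals. Arrays correlated at 0.953 to 0.996 within a group. Protein sequences were not used here.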

Additional observations from a re-analysis of the deposited data

How the results depend on the processing

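Under 17 alternative settings C4b and Serping1 passed in each and kept their direction. The number of members called was 4. It was 2 with scan as a random block and 3 with the mean of a gene's probes or with the other probes. It was 6 with a block for scan day and 7 with the replicate block. For all complement genes the count was 15, against 4 with scan as a random block and 10 after normexp correction. It was 21 with a block for scan day, 22 without wild type array 3 and 24 with the replicate block. Replicate numbers 1 and 2 occur in both genotypes, but same-numbered arrays deviated from their group means with correlations of 0.17 and -0.22, so the numbers give no pairing, and that fit rests on 2 arrays a group. The difference between the medians of components and regulators was 0.66, and it was 0.97 with the mean of a gene's probes, 0.37 with the replicate block and 1.27 with the other probes, a choice made after seeing the data. C3 turned to 1.34 (limma adjusted p = 0.175) with its other probe, since the 2 probes differ. Leaving out 1 array gave 4 to 5 members called. Over all genes, 3312 were called: 620 under the random scan block, 5566 under a block for scan day, 5446 under the replicate block, 2002 without the filter, and from 1538 to 5661 without 1 array. Cfb and Cfi could be fitted only without the filter on dim probes. Signal over background limits Cd55, Cfb and Cfi.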
